A study of Mus musculus with 2 samples.

Results

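DNA repair genes were examined in mouse embryonic fibroblasts (MEFs) with and without normal Dnmt1 function, as 49 named genes of 8 repair groups looked up by symbol in the deposited mRNA-seq table. All 49 had an entry, all 49 carried the status OK from the authors' quantification, and all 49 reached 1 RPKM (reads scaled to transcript length and to the mapped reads of the library) in either library, out of 29126 entries in the table and 11244 that passed the same filters. The data are 1 strand-specific mRNA-seq library for each of the genotypes Dnmt1+/+ and Dnmt1-/-. In the line called Dnmt1-/- both copies of Dnmt1, the gene of the maintenance DNA methyltransferase, are a hypomorphic allele rather than a full deletion, and both lines are null for trp53, which encodes the p53 protein. Each genotype is 1 cell line, the strain is given as unknown, and no treatment or time point is given. The comparison asks how the RNA of repair genes stands in cells with little Dnmt1.

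DNA repair is divided among pathways by the kind of lesion. Mismatch repair removes errors left by replication, base excision repair cuts out small damaged bases, including those that arise at methylated cytosines, and nucleotide excision repair removes bulky lesions such as those made by ultraviolet light. Broken chromosomes are joined directly by non-homologous end joining or copied from the sister chromatid by homologous recombination, while the Fanconi anaemia pathway handles DNA crosslinks and the kinases ATM and ATR signal the damage to the cell cycle. In cells with intact p53 part of this signal acts through p53, which both lines lack.

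The targeted gene, Dnmt1, was at 65.2 RPKM in the Dnmt1+/+ library against 14.5 RPKM in the Dnmt1-/- library (log2 change -2.16), which is the direction of the labels. Changes are given as log2(RPKM + 0.1) in Dnmt1-/- minus the same in Dnmt1+/+, a scale on which the changes of weakly expressed genes come out too small. With 1 library per genotype there is no replicate spread, no test and no p-value, and a value past 2-fold (1 on the log2 scale) is a rule of size only. The deposited table carries neither read counts nor library totals, and no interval is given. The median change of the 11244 genes was -0.14, and changes are to be read relative to it. Of 11 fibroblast markers, 10 reached 1 RPKM, including Col1a1 at 1448 and 897.7 RPKM and Vim at 2269 and 1873 RPKM, while Lum was near 0 in both libraries. The summed RPKM of the 11 was 6178 and 3732. Of the 10, 4 were more than 2-fold lower in Dnmt1-/-, namely Thy1 at 4.84 and 0.129 RPKM, Postn at 176.6 and 13.7, Fn1 at 663.7 and 235.5 and Col1a2 at 1241 and 475.9, and 1 was more than 2-fold higher, Pdgfra at 6.95 and 18.7. Among all genes kept, 10.9% were lower and 8.47% higher. With the median of all genes subtracted, the same 4 were lower and 2 were higher, Pdgfra and Dcn, the latter at 2.43 and 4.71 RPKM. The summed RPKM of 5 epithelial markers was 0.328 and 0.736, and that of 4 endothelial markers 0.434 and 0.679. The 3 haematopoietic markers summed to 0.666 and 9.71. Of these, Ptprc was listed at 0 in both libraries, Csf1r was at 0.0702 and 6.08 RPKM and Cd68 at 0.596 and 3.63. The 3 pluripotent markers summed to 0.488 and 0.078. Of the 2 neural markers with an entry, Tubb3 was at 16.9 and 12.9 RPKM and Sox2 was near 0 in both libraries. The part of these markers in the values of the repair genes was not tested. In bulk RNA, fewer cells that express a gene and less RNA per cell cannot be told apart.

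None of the 49 listed repair genes changed more than 2-fold in either direction. Among all genes kept, 19.4% did so, 8.47% higher and 10.9% lower in Dnmt1-/- MEFs, and among the 10365 genes whose mean RPKM lay within the range of the repair genes, 1.31 to 300.1, the share was 16.4%, 6.99% higher and 9.44% lower. The changes of the 49 genes ran from -0.87, for Mlh3, to 0.46, for Mre11a, with a median of -0.31 and the middle 50% between -0.54 and 0.05. For all genes kept the middle 50% lay between -0.56 and 0.27. A change below 0 was seen in 32 of the 49 genes (65.3%), against 59.6% of all genes kept, and in 30 once the median of all genes was subtracted, when Rad50 and Lig4 turn above 0. At a smaller threshold of 1.5-fold, 10 repair genes were lower and none was higher, where 23.7% and 14.1% of all genes kept were, 37.8% in either direction. In the genes of like RPKM these shares were 22.3%, 12.7% and 35%. This one-sided count depends on the scaling: with the median of all genes subtracted, 4 repair genes were lower (Mlh3, Lig3, Xrcc5 and Prkdc) and 3 higher (Mre11a, Ercc4 and Fancd2) at 1.5-fold, against 18.1% and 17.8% of all genes kept. Without that subtraction, the 39 genes within 1.5-fold make up 79.6% of the list, against 62.2% of all genes kept. The list was drawn up with earlier results of these libraries known; nothing particular to repair genes is read from these shares.

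**Figure D1:**
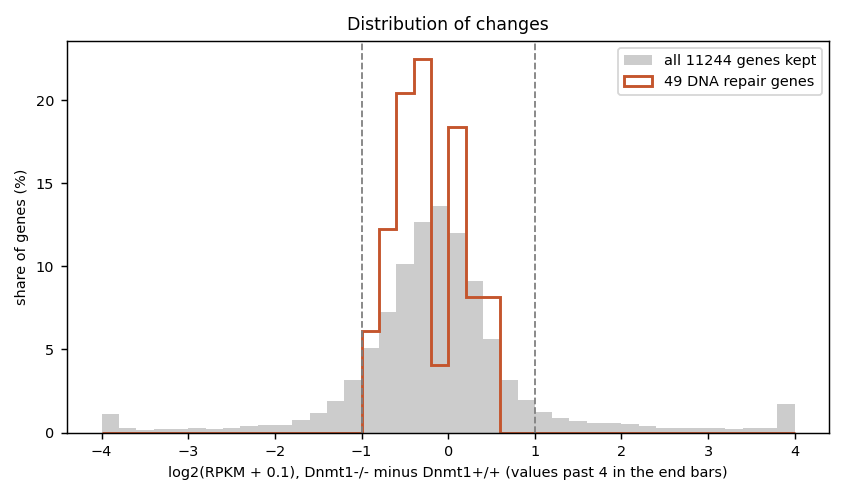
Share of genes (%) by log2 change between the libraries, in bins of 0.2, for all 11244 genes kept (grey) and the 49 repair genes (line), with dashed lines at 2-fold. The 49 repair genes lie between -0.87 and 0.46, and both tails past the dashed lines hold only genes outside this list.

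The order of levels was alike in the 2 libraries. Across the 49 genes, the RPKM values of the 2 libraries had a Spearman correlation of 0.960, computed over genes of the same libraries, which are not independent. The same value over all genes kept was 0.901. The highest level was that of Ddb1 in both libraries, and Ddb1, Apex1, Xrcc6, Parp1 and Msh6 were the 5 most abundant in both. At the other end, Palb2 and Mgmt were the lowest in Dnmt1+/+, and Mgmt, Mlh3 and Palb2 the lowest in Dnmt1-/-. An RPKM of at least 10 in both libraries was found for 16 genes, and 15 genes stayed under 5 RPKM in both. Neighbours in this order are often close, and without replicates it is not known which of them differ.

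**Figure D2:**
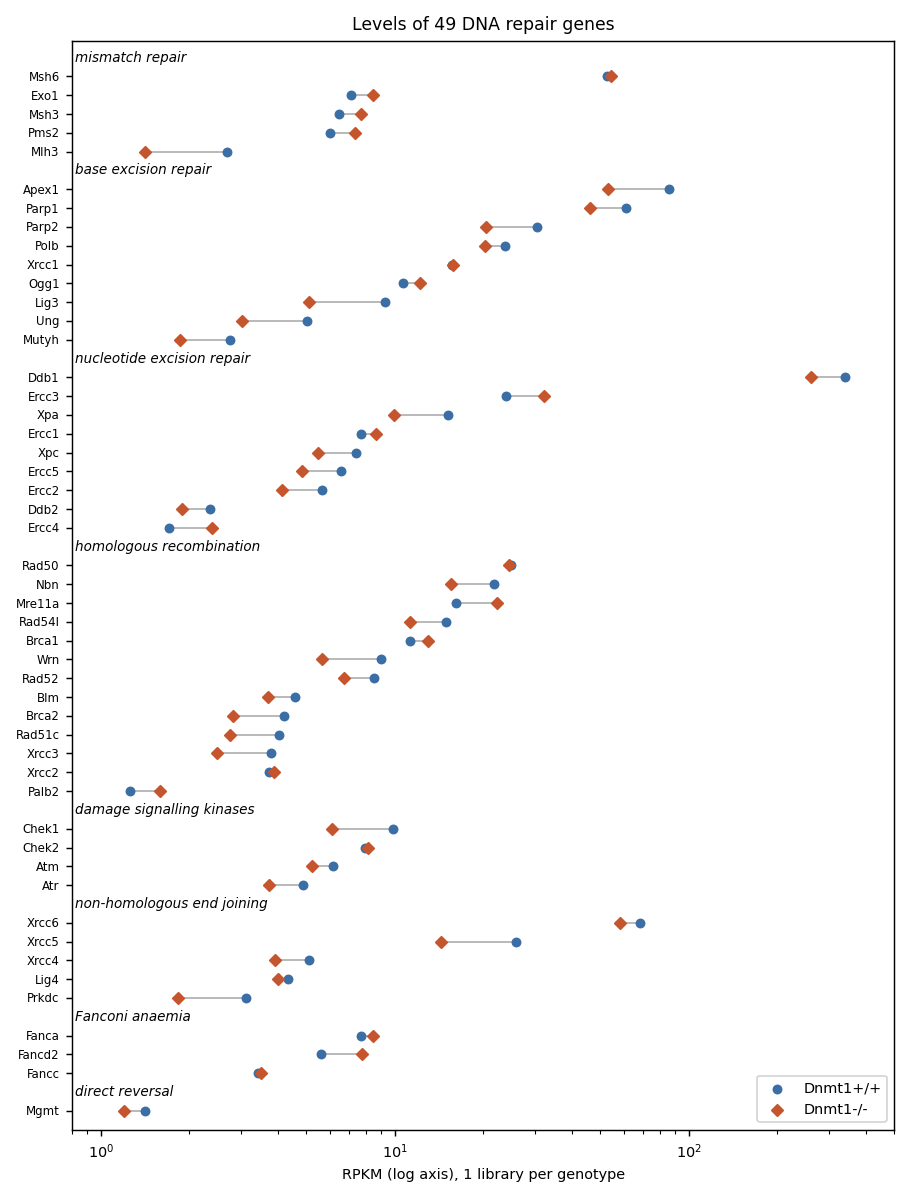
RPKM on a log axis of each of the 49 genes in the Dnmt1+/+ library (circles) and the Dnmt1-/- library (diamonds), grouped by repair pathway and joined by a line per gene. Levels span from 1.20 RPKM, for Mgmt in Dnmt1-/-, to 339.7 RPKM, for Ddb1 in Dnmt1+/+, and the lines are short beside that range.

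Among the 5 mismatch repair genes, 4 were slightly higher in Dnmt1-/- MEFs and 1 was lower. Msh6, whose protein recognises base mismatches, was the most abundant at 52.8 RPKM in Dnmt1+/+ and 54.4 in Dnmt1-/-. Msh3, whose protein recognises loops, was at 6.45 and 7.66 RPKM, so the ratio of Msh6 to Msh3 was 8.19 in Dnmt1+/+ and 7.09 in Dnmt1-/-. Pms2, an endonuclease that nicks the new strand, was at 6.0 and 7.32 RPKM, and Exo1, the exonuclease that removes the mismatched strand, at 7.08 and 8.44. These 4 changes lie between 0.04 and 0.28. Mlh3, a related endonuclease subunit that also acts in meiotic recombination, lies at chr12:86575479-86611541 of NCBI37 on the minus strand. It was at 2.68 RPKM in Dnmt1+/+ and 1.42 in Dnmt1-/-, a log2 change of -0.87, the lowest of all 49 genes. The ratio of Pms2 to Mlh3 was therefore 2.24 in Dnmt1+/+ and 5.16 in Dnmt1-/-. Both Mlh3 values are low. The 3 other listed genes of this pathway that passed the filters were all lower within 2-fold, among them Pms1, at 4.88 and 2.67 RPKM.

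Base excision repair had the lowest median of the groups with more than 1 gene, -0.54, and 7 of its 9 genes had a change below 0 and below the median of all genes. For this and the pathway counts that follow, 59.6% of all genes kept had a change below 0. The glycosylases start the pathway by removing the damaged base. Ung, which removes uracil, was at 5.02 RPKM in Dnmt1+/+ and 3.03 in Dnmt1-/-, a log2 change of -0.71. Mutyh, which removes adenine opposite oxidised guanine, was at 2.75 and 1.87 RPKM. Ogg1, which removes oxidised guanine itself, was instead at 10.7 and 12.2 RPKM, the highest change of the group at 0.18. Apex1, the endonuclease that cuts the site left behind, was the most abundant gene of the group, at 85.3 RPKM in Dnmt1+/+ and 53.3 in Dnmt1-/-, a log2 change of -0.68. Polb, the polymerase that fills the gap, was at 23.6 and 20.2 RPKM. The last steps are ligation and signalling at the nick. Lig3, the ligase that works bound to the scaffold XRCC1, was at 9.26 RPKM in Dnmt1+/+ and 5.10 in Dnmt1-/-, a log2 change of -0.85. Xrcc1 was level at 15.7 and 15.8 RPKM, and the ratio of Xrcc1 to Lig3 was 1.70 in Dnmt1+/+ and 3.09 in Dnmt1-/-. Parp1, the main sensor of strand breaks, was at 61.0 and 46.2 RPKM, and Parp2, its smaller relative, at 30.5 and 20.4. The ratio of Parp1 to Parp2 was 2.0 and 2.27. The summed RPKM of the 9 genes was 243.9 in Dnmt1+/+ and 178.1 in Dnmt1-/-, to which Apex1 contributed most. The 16 other entries of this pathway that passed the filters had a median change of -0.21, with 11 below 0. Their summed RPKM went the other way, at 196.2 in Dnmt1+/+ and 249.8 in Dnmt1-/-.

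Nucleotide excision repair held 9 genes with a median change of -0.38, 6 of them below 0. The lesion is first bound by XPC or by the DDB complex. Ddb1, which also serves as the adaptor of CUL4 ubiquitin ligases, was at 339.7 RPKM in Dnmt1+/+ and 260.5 in Dnmt1-/-. Ddb2, its lesion-binding partner, was at 2.36 and 1.88 RPKM, so Ddb1 exceeded Ddb2 by a ratio of 144.2 in Dnmt1+/+ and 138.2 in Dnmt1-/-. Xpc, which senses the distorted helix, was at 7.40 and 5.46 RPKM. Xpa, which verifies the damage, had the lowest change of the group, -0.61, at 15.1 and 9.90 RPKM. The helicases of TFIIH differed in direction. Ercc3 (XPB) was at 23.9 RPKM in Dnmt1+/+ and 32.1 in Dnmt1-/-, while Ercc2 (XPD), in a joint entry with the microRNA gene Mir343, was at 5.65 and 4.15, and the ratio of Ercc3 to Ercc2 was 4.23 and 7.74. The incision nucleases differed too. Ercc5 (XPG), which cuts on the 3′ side, was at 6.57 and 4.83 RPKM. The subunits of the 5′ nuclease were both slightly higher in Dnmt1-/-, Ercc1 at 7.67 and 8.64 RPKM and Ercc4 (XPF) at 1.71 and 2.39, the latter with the highest change of the group, 0.46.

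The 13 genes of homologous recombination had a median change of -0.33, and 9 were below 0, or 8 with the median of all genes subtracted, when Rad50 turns above 0. The break is first processed by the MRN complex of Mre11a, Rad50 and Nbn. Its nuclease gene Mre11a, at chr9:14589098-14641567 of NCBI37 on the plus strand, was at 16.1 and 22.2 RPKM, and its log2 change of 0.46 was the highest of all 49 genes. Rad50, the subunit that tethers DNA ends, was level at 24.8 and 24.4 RPKM. Nbn, which binds ATM, was at 21.8 and 15.5 RPKM. The 3 subunits thus did not share a direction, and the ratio of Rad50 to Nbn was 1.14 in Dnmt1+/+ and 1.58 in Dnmt1-/-.

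The other 10 genes of homologous recombination had lower RPKM than these 3 in both libraries. Brca1, which promotes resection of the ends, was at 11.2 RPKM in Dnmt1+/+ and 12.9 in Dnmt1-/-. Brca2, which loads the recombinase onto DNA, was at 4.19 and 2.81 RPKM. Palb2, the bridge between the BRCA proteins, was at 1.26 and 1.59 RPKM, so the ratio of Brca2 to Palb2 was 3.32 in Dnmt1+/+ and 1.76 in Dnmt1-/-, from low values. The recombination mediators Rad51c, at 4.03 and 2.76 RPKM, and Xrcc3, at 3.78 and 2.48, form a complex with each other, and their ratio was 1.07 and 1.11. Xrcc2, a mediator of another complex, was at 3.73 and 3.87 RPKM. Rad52, an annealing factor, was at 8.51 and 6.74 RPKM. Rad54l, a motor protein of the search for homology, was at 14.9 and 11.3 RPKM. The RecQ helicase genes of the list were both lower, Blm at 4.58 and 3.70 RPKM and Wrn, which had the lowest change of the group at -0.66, at 8.96 and 5.65. Of the RecQ genes outside the list, Recql4 was lower too, at 8.30 and 5.34 RPKM. Recql, at 15.5 and 30.1 RPKM, and Recql5, at 3.79 and 4.10, were higher. The 19 other entries of this pathway that passed the filters had a median change of 0.10, with 8 below 0.

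Of the 4 damage signalling kinases, 3 had a change below 0, with a median of -0.30. Atm, which responds to broken ends, was at 6.17 RPKM in Dnmt1+/+ and 5.22 in Dnmt1-/-. Its effector Chek2 was level at 7.95 and 8.09 RPKM. Atr, which responds to stalled replication, was at 4.87 and 3.74 RPKM. Chek1, the effector of ATR, was the most abundant of the 4 in Dnmt1+/+ at 9.83 RPKM and was at 6.10 in Dnmt1-/-, a log2 change of -0.68. The ratio of Atr to Chek1 was 0.495 and 0.613, and that of Atm to Chek2 0.777 and 0.645.

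All 5 listed genes of non-homologous end joining had a change below 0, where 59.6% of all genes kept did, and their median was -0.37. When the median of all genes was subtracted, 4 of the 5 stayed below 0, Lig4 being the exception. Of the 4 other entries of this pathway that passed the filters, 3 were below 0 and Polm was above, at 3.11 and 5.05 RPKM. The genes of the Ku ring, which binds broken ends first, had unequal changes. Xrcc6 (Ku70) was at 68.0 RPKM in Dnmt1+/+ and 58.2 in Dnmt1-/-. Xrcc5 (Ku80), at chr1:72353995-72441526 of NCBI37 on the plus strand, was at 25.8 and 14.4 RPKM, a log2 change of -0.83. The ratio of Xrcc6 to Xrcc5 RNA was 2.64 in Dnmt1+/+ and 4.04 in Dnmt1-/-. Prkdc, the kinase recruited by Ku, was at 3.12 and 1.83 RPKM, a log2 change of -0.74. Xrcc4 and Lig4, which seal the break together, were at 5.09 and 3.92 RPKM and at 4.35 and 3.99 RPKM, and their ratio was 1.17 and 0.981.

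The 3 Fanconi anaemia genes of the list all had a change above 0, with a median of 0.14. The 9 other entries of this pathway that passed the filters had a median of -0.13, with 6 below 0. Fanca, of the core complex, was at 7.66 RPKM in Dnmt1+/+ and 8.42 in Dnmt1-/-. Fancc, another core subunit, was level at 3.41 and 3.50 RPKM. Fancd2, whose monoubiquitination by the core complex activates the pathway, was at 5.59 and 7.72 RPKM, a log2 change of 0.46. Mgmt stands alone in the list as a direct reversal enzyme, which takes the alkyl group off guanine and is used up in doing so. In many human tumours MGMT is silenced by methylation of its promoter. In these mouse cells Mgmt, at chr7:144086294-144319870 of NCBI37 on the plus strand, was at 1.42 RPKM in Dnmt1+/+ and 1.20 in Dnmt1-/-, a log2 change of -0.22. The Dnmt1-/- value was not the higher one, and both values are near the minimum of 1 RPKM. Methylation of the Mgmt promoter in these lines was not examined here, and its part in these values was not tested.

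**Figure D3:**
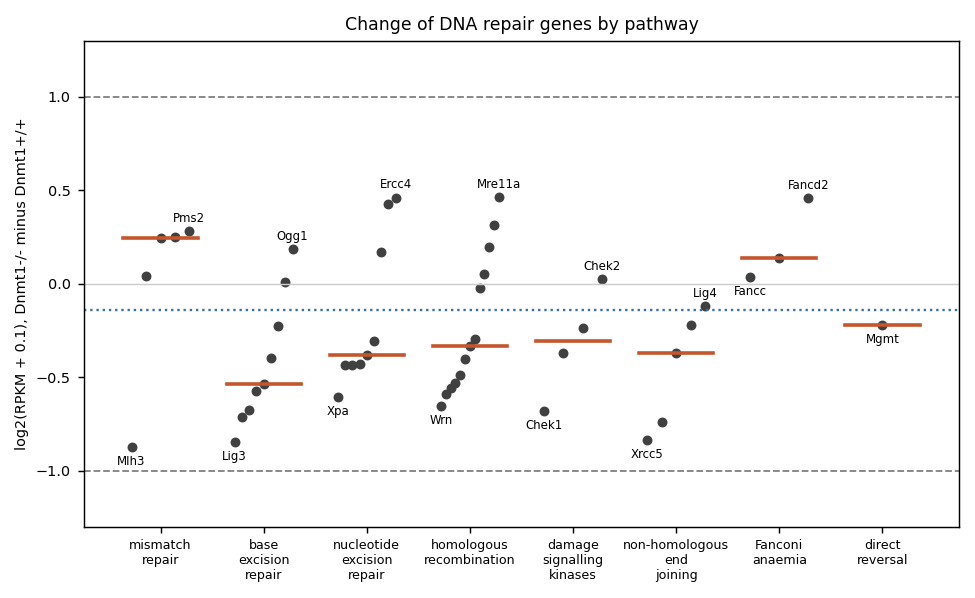
Log2 change of each repair gene (points) by pathway, with the median of each pathway (red bars), the median of all genes kept (dotted line, -0.14) and 2-fold (dashed lines). All points lie inside the dashed lines. Among these listed genes, only the mismatch repair and Fanconi anaemia groups have medians above 0.

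Many repair genes are transcribed mainly in S phase and G2. The 11 repair genes known for this, namely Brca1, Brca2, Rad54l, Exo1, Blm, Chek1, Fancd2, Fanca, Msh6, Ung and Xrcc2, had a median change of 0.04, with 5 below 0. The other 38 had a median of -0.35, with 27 below 0. Of 18 entries for 17 cell cycle genes, 1 was more than 2-fold higher, Aurkb, a mitotic kinase, at 30.4 and 63.4 RPKM. None was more than 2-fold lower, and of all genes kept 8.47% were higher and 10.9% lower. The median change of the 18 entries was 0.08. At 1.5-fold 3 entries were higher, among them Cdk1 at 68.2 and 119.2 RPKM. Bub1, at 15.8 and 8.11 RPKM, was the 1 lower entry, and of all genes kept 14.1% were higher and 23.7% lower. Pcna, the replication clamp, was level at 92.2 and 92.8 RPKM, and the proliferation marker Mki67 has 2 entries at 35.4 and 32.6 RPKM and at 41.3 and 32.4 RPKM. These values stand beside those of the repair genes, and the part of proliferation in them was not tested.

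The 99 other genes listed for the same pathways and for translesion synthesis, the copying past damaged bases, were also looked up. Entries were found for 98, and 95 entries of 94 genes passed the filters, of which 1 was more than 2-fold higher and 4 were more than 2-fold lower, against 8.47% and 10.9% of all genes kept. Their median change was -0.16, and at 1.5-fold 10 were higher and 13 lower. With the median of all genes subtracted, 4 were more than 2-fold higher and 3 lower, as Fen1, Recql and Alkbh2 pass the threshold and 1 of the Apex2 entries no longer does. The higher entry was Parp3, a relative of Parp1 that acts at broken ends, at 31.1 RPKM in Dnmt1+/+ and 74.6 in Dnmt1-/-. Rif1, which protects broken ends from resection and times replication, was at 16.5 and 5.0 RPKM, a log2 change of -1.70. Rev3l, the catalytic subunit of the translesion polymerase zeta, was at 6.95 and 1.93 RPKM, a log2 change of -1.80. The other 2 lower entries are both of Apex2, an X-linked relative of Apex1, at 9.10 and 2.45 RPKM and at 2.24 and 1.01 RPKM. None of the 49 repair genes is on a sex chromosome. They lie on 17 autosomes.

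Transcript length was set beside the change. Over 11095 genes with a length in the annotation, the Spearman correlation of the change with the length of the longest transcript was -0.13, and the 1352 genes with transcripts over 6000 bases had a median change of -0.30, against -0.12 for the 9743 others. Among the 49 repair genes the correlation was 0.09, and the 7 genes over 6000 bases had a median of -0.37 against -0.30 for the other 42. Those with the longest transcripts, Prkdc at 12674 bases, Brca2 at 10724 and Atm at 10006, changed by -0.74, -0.56 and -0.24. These correlations are over genes measured in the same libraries, and are given as a description.

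The promoters of repair genes are of interest here because CpG sites are the substrate of the Dnmt1 enzyme. The RefSeq promoter table (build GRCm38.p6) held a window for 38 of the 49 genes (77.6%), under the 80% needed for a summary over the list, so only single windows are described. Of the genes with a window, those of the 3 lowest changes (Mlh3, Lig3 and Xrcc5) and of the 3 highest (Mre11a, Ercc4 and Palb2) were taken, with Rad51c and Mgmt chosen for the reasons given beside them. The 250 bases before the first listed start site (for Rad51c, before the listed start nearest to its neighbour Tex14) are shown for 5, 5′ to 3′ along the gene, with each CpG in capitals. They show how far the number of sites that could be methylated differs between genes that stayed within 2-fold.
Mlh3, chr12:85270600-85270849, minus strand: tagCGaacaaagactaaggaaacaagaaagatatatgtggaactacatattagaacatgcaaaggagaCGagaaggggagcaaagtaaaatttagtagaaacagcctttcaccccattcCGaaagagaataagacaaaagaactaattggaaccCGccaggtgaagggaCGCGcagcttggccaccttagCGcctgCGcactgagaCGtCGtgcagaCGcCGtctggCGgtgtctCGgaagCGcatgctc
Xrcc5, chr1:72307171-72307420, plus strand: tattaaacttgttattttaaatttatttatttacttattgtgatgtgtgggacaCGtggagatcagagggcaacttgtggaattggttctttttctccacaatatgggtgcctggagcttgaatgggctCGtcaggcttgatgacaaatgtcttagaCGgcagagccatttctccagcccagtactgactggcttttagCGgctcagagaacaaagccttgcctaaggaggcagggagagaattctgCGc
Mre11a, chr9:14784404-14784653, plus strand: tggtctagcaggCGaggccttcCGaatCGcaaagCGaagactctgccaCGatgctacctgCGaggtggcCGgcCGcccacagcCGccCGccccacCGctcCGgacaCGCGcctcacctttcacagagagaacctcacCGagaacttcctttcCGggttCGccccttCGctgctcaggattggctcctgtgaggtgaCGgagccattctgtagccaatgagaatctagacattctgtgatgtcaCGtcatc
Rad51c, chr11:87404955-87405204, minus strand: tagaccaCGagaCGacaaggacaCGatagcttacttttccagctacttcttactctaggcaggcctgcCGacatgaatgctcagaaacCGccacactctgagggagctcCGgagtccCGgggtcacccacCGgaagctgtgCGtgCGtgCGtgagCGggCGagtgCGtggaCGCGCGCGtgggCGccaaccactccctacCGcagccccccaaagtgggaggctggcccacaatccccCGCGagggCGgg
Mgmt, chr7:136894336-136894585, plus strand: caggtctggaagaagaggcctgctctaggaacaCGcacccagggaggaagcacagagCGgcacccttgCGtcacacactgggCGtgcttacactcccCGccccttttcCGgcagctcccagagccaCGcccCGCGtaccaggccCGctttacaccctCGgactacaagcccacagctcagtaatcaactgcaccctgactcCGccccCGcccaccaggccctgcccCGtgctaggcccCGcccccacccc

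The Xrcc5 window held 5 CpGs, the Mlh3 window 15, the Mre11a window 20, the Rad51c window 23 and the Mgmt window 15. Over all 32851 windows of the table the median was 6, with the middle 50% between 2 and 16. The windows of Lig3, Ercc4 and Palb2 held 12, 19 and 20. Scaled to base composition, the observed to expected CpG ratio was 0.412 for Xrcc5 and 0.588 for Mgmt, and between 0.776 and 1.06 for the other 6, against a median of 0.374 over all windows. Xrcc5 had the fewest CpGs of the 8. Most of these windows were picked by the change of their gene, so CpG number is not set against change here. The GC box letters GGGCGG, searched on both strands, were in 4 of the 8 windows (Mre11a, Rad51c, Mgmt and Palb2) and in 32.7% of all windows. The letters CCAAT were in 4 (Mlh3, Xrcc5, Mre11a and Ercc4) and in 33.8% of all windows. The E2F-type letters TTTCGCGC and TTTGGCGC, and the letters TTTGAA, were in none of the 8 and in 0.256%, 0.417% and 16.0% of all windows. A match or its absence in this window is a description only. No window was held for Exo1, Polb, Xpc, Ercc3, Ddb2, Xrcc2, Rad50, Nbn, Wrn, Prkdc and Fancd2.

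Some repair genes start close to a gene on the other strand. In the NCBI37 annotation, a protein-coding gene on the other strand began within 1000 bases of the start of 18 of the 49 repair genes (36.7%), against 17.0% of the 10853 protein-coding genes kept. All 18 nearest partners had an entry, and 17 reached 1 RPKM. None of these 17 was more than 2-fold higher and 1 was more than 2-fold lower, against 8.47% and 10.9% of all genes kept. The lower one was Purg, beside Wrn, at 7.82 and 3.51 RPKM, which was within 2-fold once the median of all genes was subtracted. The other 16 stayed within 2-fold. Member and partner lay on the same side of the median change of all genes in 11 of the 17 pairs. Of all genes kept, 5622 lay below that median and 5622 above, and nothing is read from this count.

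The pairs varied in how alike they were. Fancd2 and Tmem111, whose starts lie 44 bases apart, changed by 0.46 and 0.53. Xrcc3 and Zfyve21 changed by -0.59 and -0.56, and Apex1 and Osgep by -0.68 and -0.49. The pairs with a larger gap include Prkdc and Mcm4, a subunit of the replicative helicase, whose starts lie 466 bases apart. Mcm4 was level at 61.2 and 63.2 RPKM, while Prkdc changed by -0.74. Xpc changed by -0.43 and its partner Lsm3, a splicing factor gene, by 0.64. Atm changed by -0.24 and Npat, which activates histone genes, by -0.81.

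Rad51c was chosen for display because its partner is a germ cell gene, and the stretch printed above holds the interval between the nearest start of Rad51c and the start of Tex14 and runs on into Tex14. Tex14, needed for the intercellular bridges of germ cells, starts 111 bases from Rad51c on chromosome 11 of NCBI37. It was at 0.00408 RPKM in Dnmt1+/+ and 0.738 in Dnmt1-/-, under the minimum of 1 RPKM in both libraries, while Rad51c was at 4.03 and 2.76 RPKM. On the log2 scale Tex14 changed by 3.01 and Rad51c by -0.53. This pair was singled out after its values were seen.

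**Figure D4:**
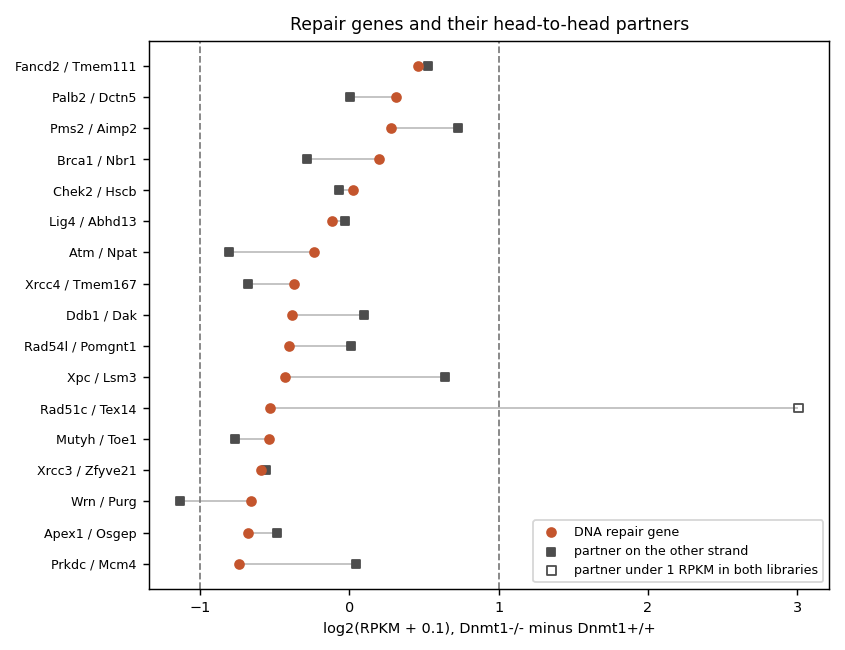
Log2 change of 17 of the 18 repair genes with a partner (circles; 1 pair whose partner passed the filters is not shown) and of the nearest protein-coding gene that starts within 1000 bases on the other strand (squares, open where under 1 RPKM in both libraries), joined by a line per pair, with dashed lines at 2-fold. Purg lies past the lower line and Tex14, from a very low value, past the upper line at 3.01.

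Gene bodies also overlap. In the annotation 17 of the 49 genes overlapped another protein-coding gene, 16 of them on the opposite strand, among them Lig3 with Rffl, Apex1 with Tmem55b, Xpa with Ncbp1 and Xrcc6 with Pppde2, and Pms2 overlapped Rsph10b2 on its own strand. The libraries were strand-specific, but whether the strand was used in assigning reads is not stated, so the values of these genes are less certain. The share of all genes kept with such an overlap was not computed. Nothing particular to repair genes is read from the count of 17.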

How the data were processed

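RPKM values were made by the authors with Cuffdiff, after TopHat alignment (mm9) and Cufflinks assembly, with versions not given in the sources used here. The deposited table holds an RPKM column for each of the 2 libraries and a status per entry. Columns named for the wild-type and knock-out were taken as Dnmt1+/+ and Dnmt1-/-, as the study defines them. The filters were a named gene, the status OK and 1 RPKM or more in either library, and joint entries were split at commas. Changes are differences of log2(RPKM + 0.1). The NCBI37 annotation (mm9, GENCODE M1) gave positions, strands, transcript lengths and partners, with all 49 genes located, and promoter windows came from RefSeq (GRCm38.p6). Counting of changed genes was tested on simulated data. The members and lists were chosen with earlier results of these data known. All 49 genes are given with both values, and other genes by list or where past 2-fold. Partners, overlaps, transcript length, level ratios, other counts with the median subtracted, the Rad51c start site and the comparison with genes of like RPKM were added after the table was seen. None of the 49 genes passed 2-fold, so the planned look at neighbours of such genes had none to take. Alternatives were other pseudocounts, filters, scalings, statuses and a 1.5-fold threshold. Some listed genes, and 1 partner in the plot of pairs, are not reported by name here. Python 3.11.15, numpy 2.4.6, pandas 2.3.3 and matplotlib 3.10.9 were used.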

Additional observations from a re-analysis of the deposited data

How the results depend on the processing

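The numbers of listed repair genes past 2-fold, 0 higher and 0 lower, were the same under all 9 planned settings that keep the 2-fold threshold. The 1.5-fold threshold gave 10 lower and 0 higher. With the median of all genes subtracted as well, a setting chosen after seeing the data, it gave 4 lower and 3 higher. The median change of -0.31 was the same with no filter on low RPKM, with a mean RPKM of at least 1 and with entries of any status. It was -0.25 with a pseudocount of 1, -0.32 with a pseudocount of 0.01 and with no pseudocount, -0.29 for the 34 genes that reach 5 RPKM, -0.17 relative to the median of all genes and -0.27 after the difference of the upper quartiles was subtracted. The genes at the ends of the list depended on the setting. The lowest change was that of Xrcc5, -0.80, with a pseudocount of 1, and that of Lig3, -0.85, among the genes that reach 5 RPKM. The highest was that of Ercc4, 0.48, with a pseudocount of 0.01 and with none. Subtracting the median of all genes turned the sign of 2 genes, Rad50 and Lig4, and the upper quartile that of 1, Rad50. Relative to that median, 9.71% of all genes were more than 2-fold higher and 8.58% lower, against 8.47% and 10.9% without it. Nothing here measures variation between cultures, and the table carries no read counts. No paired analysis was possible because each genotype has 1 library.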

Other observations

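Since both lines lack p53, genes that p53 is known to activate were looked up. Of 10 such genes, 5 were more than 2-fold lower in Dnmt1-/- MEFs and none was more than 2-fold higher, against 10.9% and 8.47% of all genes kept. With the median of all genes subtracted the 5 become 4, without Bbc3. Cdkn1a, the cell cycle inhibitor p21, was at 8.61 RPKM in Dnmt1+/+ and 1.41 in Dnmt1-/-. Sesn2, a stress-induced regulator of mTOR signalling, was at 13.6 and 3.56 RPKM, and its relative Sesn1 at 29.0 and 9.31. Perp, a membrane protein gene, was at 1.68 and 0.537 RPKM, and Bbc3, which encodes the apoptosis activator PUMA, at 4.64 and 2.17. Mdm2, the ubiquitin ligase of p53, was level at 24.5 and 25.8 RPKM, and Bax at 56.7 and 51.2. Ccng1, a cyclin gene, was at 29.7 and 18.7. Gtse1, which is expressed in S phase and G2, was at 11.9 and 20.2 RPKM, more than 1.5-fold higher in Dnmt1-/-, and Zmat3, a zinc finger gene, at 3.64 and 4.51.

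Of the 95 entries of other repair genes, 10 were higher and 13 lower by more than 1.5-fold, against 14.1% and 23.7% of all genes kept. With the median of all genes subtracted these were 11 and 7, against 17.8% and 18.1%. On the scale without it, besides Parp3, the higher ones were Fen1, Rpa1, Recql, Polm, Dclre1b, Alkbh2, Polh, Polq and Rad18. Besides Apex2, Rif1 and Rev3l, the lower ones included Pms1, Aptx, Tdp1, Rmi1, Recql4, Poll, Fancm and Poli. Rpa1, which coats single-stranded DNA, was at 86.4 and 153.1 RPKM, and Fen1, the flap nuclease, at 33.2 and 61.5. Within translesion synthesis 3 entries were higher and 2 lower at this threshold, among them Polh, which copies past ultraviolet lesions, at 14.7 and 23.6 RPKM and Poli, another such polymerase, at 4.68 and 2.53. The 15 entries of nucleotide excision repair all stayed within 1.5-fold.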
